A study of Homo sapiens and Mus musculus with 81 samples.

Results

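The genes described here encode the UDP-glucuronosyltransferases (UGT), the cytosolic sulfotransferases (SULT) and the glutathione S-transferases (GST) of the alpha, mu, pi and theta classes. They were taken as every array gene whose symbol starts with UGT1, UGT2 or UGT3, with SULT and a digit, or with GSTA, GSTM, GSTP or GSTT and a digit, in capitals or in mouse spelling. The rule found 35 human genes (12 UGT, 10 SULT and 13 GST) among 17846 and 41 mouse genes (13 UGT, 12 SULT and 16 GST) among 21931. Each gene was read from its brightest probe set, out of 45 human and 44 mouse probe sets of these genes. No gene was left out for a low value.

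Liver cells make fat-soluble compounds excretable by coupling them to a water-soluble group. UGTs in the endoplasmic reticulum transfer glucuronic acid from UDP-glucuronate, SULTs in the cytosol transfer sulfate from the donor PAPS, and GSTs couple the tripeptide glutathione to reactive electrophiles. Substrates include bilirubin, bile acids, steroid and thyroid hormones, drugs and products of lipid peroxidation, and many of these genes are among the most active metabolic genes of normal hepatocytes.

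The arrays measured messenger RNA after short interfering RNA (siRNA), as part of a study of microRNA-like effects of siRNAs on unintended transcripts. HUH7 and PLC/PRF/5, 2 human liver cancer lines, received 10 nM of siRNA in Lipofectamine RNAiMAX (APOB-Hs1 to APOB-Hs4 by number, Apob-Mm1 or Apob-Mm2, or RAD18) or mock transfection, and were collected at 6, 12, 24 and 48 h (HUH7, 32 arrays) or at 6, 12 and 48 h (PLC/PRF/5, 24 arrays). The mouse hepatoma line Hepa1-6 received APOB-Hs1, APOB-Hs3, APOB-Hs4 or mock transfection for 6, 12, 24 and 48 h (16 arrays). Mice received 3 mg/kg of APOB-Hs1, APOB-Hs3 or APOB-Hs4 in a lipid nanoparticle and their livers were taken at 3 d (3 livers per siRNA, 9 arrays). Every liver group thus carried an siRNA, and an untreated liver was not analysed here. Strain, age and sex of the mice are not given in the labels. Each treatment and time in a line was 1 array, so arrays of other times stood in for replicates of a treatment and arrays of other treatments for replicates of a time. The labels do not say whether arrays came from separate cultures, so p-values in the lines measure only the spread between these arrays, which may be technical. Within a line this spread is what treatment plus time left over, so it also holds any siRNA effect that changed with time. In liver it is the spread between the 3 livers of a group.

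Values are log2 of the RMA intensity, and levels are compared within a gene, not between genes, since probes differ in brightness. The median probe set stood at 5.04 on the HUH7 arrays, 5.09 on those of PLC/PRF/5, 4.45 on those of Hepa1-6 and 4.34 on those of liver. By their mean, 16 of the 35 genes in HUH7 and 17 in PLC/PRF/5 lay above it, as did 21 of the 41 genes in Hepa1-6 and 34 in liver. The files used here hold no detection call, and a median level under 3, the case for 6 genes in HUH7, 7 in PLC/PRF/5, 14 in Hepa1-6 and 5 in liver, may be background. In the livers, where Xist, the transcript of the inactive X chromosome, lay between 11.12 and 11.59, the Y-linked genes Uty and Eif2s3y read 2.55 to 2.81 and 2.22 to 2.68. A difference against a level under 3 is therefore given as a lower bound in size, with the cut at 3 chosen after the levels were seen. Probe sets marked as able to bind several transcripts read 12 of the 35 human and 12 of the 41 mouse genes, among them GSTM1, GSTM5, SULT1A2, SULT2B1, UGT1A6, UGT2B10, UGT2B11, UGT2B15, Gsta1, Gsta2, Sult2a1 and Ugt1a6b. Their values may include near relatives. UGT1A transcripts share their last exons, so UGT1A6 and Ugt1a6b may report the whole UGT1A locus.

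The labelled targets were lower with the APOB-Hs and RAD18 siRNAs in the cell lines. APOB, the apolipoprotein B gene, differed by -1.69 to -2.51 (log2, siRNA minus mock, limma's test) under the 4 APOB-Hs siRNAs in HUH7, and PLC/PRF/5 gave -2.54 to -3.27. RAD18, a ubiquitin ligase gene of DNA damage tolerance, had -1.98 in HUH7 under its own siRNA, and PLC/PRF/5 gave -3.25. The summed target list in HUH7 ran from 2547 to 8273 with Apob-Mm1 and from 3694 to 11370 with Apob-Mm2. Mock had 8417 to 10410. In PLC/PRF/5 these sums were 829.4 to 2569 and 944 to 4225, against 4508 to 6615 with mock. No gene passed for Apob-Mm1 in either line, so its share of 0% does not show a lack of effect. Apob fell by 2.32 to 2.64 in Hepa1-6, while in liver, where each siRNA can be set only against the others, its differences were 0.13, 0.44 and -0.57 and none passed. Hepatocyte markers were uneven: albumin (ALB) had a median level of 13.79 in HUH7 and 7.47 in PLC/PRF/5. Ttr, the transthyretin gene, had 3.08 in Hepa1-6, close to the cut used above, and 11.99 in liver. Levels of Alb in the mouse systems are given below and lay nearer to each other. Residual spread was widest on the 48 h arrays of PLC/PRF/5 under APOB-Hs2 and APOB-Hs4, the 12 h array of HUH7 under APOB-Hs1, and 1 liver (replicate 1 of the APOB-Hs4 group).

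Among the human genes, 2 pairs of close relatives changed in the time courses below, and their promoters are shown for that reason. Sequences are from RefSeq (build GRCh38.p14), which held a promoter for 28 of the 35 genes, and cover the 250 bases before the annotated start, 5′ to 3′ on the gene's strand. GSTA1 lies at chr6:52803817-52804066 and GSTA2 at chr6:52763476-52763725 (minus strand), UGT2B10 at chr4:68815744-68815993 (plus strand) and UGT2B11 at chr4:69214749-69214998 (minus strand). Capitals mark matches on either strand to GTTAAT (a core of the HNF1 site), TGACNNNGC (the core of the antioxidant response element) and TATAAA (the letters of a TATA box, at any position).
GSTA1: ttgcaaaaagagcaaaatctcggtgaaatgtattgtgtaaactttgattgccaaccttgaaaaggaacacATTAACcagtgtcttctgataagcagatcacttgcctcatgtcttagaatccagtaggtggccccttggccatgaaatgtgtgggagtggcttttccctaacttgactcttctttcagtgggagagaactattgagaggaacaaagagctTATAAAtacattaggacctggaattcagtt
GSTA2: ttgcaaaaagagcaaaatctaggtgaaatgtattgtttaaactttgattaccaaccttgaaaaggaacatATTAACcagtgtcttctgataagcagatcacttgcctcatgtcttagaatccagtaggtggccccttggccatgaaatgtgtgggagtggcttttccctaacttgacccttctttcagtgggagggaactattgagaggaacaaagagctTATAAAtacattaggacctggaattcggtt
UGT2B10: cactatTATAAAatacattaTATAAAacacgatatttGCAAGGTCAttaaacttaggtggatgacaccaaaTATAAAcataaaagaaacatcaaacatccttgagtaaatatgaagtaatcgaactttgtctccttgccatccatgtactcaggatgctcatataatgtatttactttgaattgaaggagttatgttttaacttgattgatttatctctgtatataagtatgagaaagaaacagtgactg
UGT2B11: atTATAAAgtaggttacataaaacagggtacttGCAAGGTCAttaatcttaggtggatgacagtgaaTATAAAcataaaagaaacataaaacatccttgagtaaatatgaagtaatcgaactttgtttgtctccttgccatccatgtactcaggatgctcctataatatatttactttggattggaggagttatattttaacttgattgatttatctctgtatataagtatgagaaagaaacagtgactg
The GSTA1 and GSTA2 windows differed at 7 of 250 bases (97.2% identical), and each had the HNF1 core at -180 and a TATA box at -30 from the start. Without gaps the UGT2B10 and UGT2B11 windows differed at 86 bases, and they carried the antioxidant core at -213 and at -217. A search for GCGTG, the core bound by the aryl hydrocarbon receptor, found no match in these 4 windows. Of 35116 human promoters, 6.23% held GTTAAT, 10.9% held TGACNNNGC, 10.7% held TATAAA and 32.2% held GCGTG. Among 30 windows of the genes described here, 6, 8, 9 and 5 held them, in the same order. A match describes letters and is no evidence of binding.

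The widest differences among the human genes lay between the lines. HUH7 had more mRNA of UGT2B4, which glucuronidates bile acids, of GSTA2, an alpha class GST with peroxidase activity, and of SULT2A1, which sulfates dehydroepiandrosterone and bile acids. PLC/PRF/5 had more of UGT2A3, another bile acid UGT, of UGT1A6, which glucuronidates small planar phenols, and of SULT2B1, which sulfates cholesterol. With each treatment and time paired between the lines (6, 12 and 48 h, 24 arrays each), 13 of the 35 genes were higher and 16 lower in HUH7 at an adjusted p under 0.05. Of all genes 84.9% passed this test (36% higher, 48.9% lower), so the 29 genes are no larger a share than the background. The median difference was -0.01 over the 35 genes and -0.07 over all genes.

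By family, 5 of 12 UGT genes were higher and 5 lower in HUH7. The lowest, median and highest levels of UGT2B4 were 9.66, 9.96 and 10.68 in HUH7, against 6.30, 7.05 and 8.37 in PLC/PRF/5. The arrays of the lines did not overlap, and the difference was 2.90 (SE 0.095, adjusted p 3.38e-22). UGT2A3 ran the other way, with 2.40, 2.71 and 3.22 in HUH7, against 4.35, 5.66 and 6.08 in PLC/PRF/5, a difference of -2.82, which is a lower bound in size. UGT1A6 had 5.50, 6.09 and 6.46 in HUH7, against 7.57, 7.98 and 9.19 in PLC/PRF/5 (difference -2.12, SE 0.122). UGT2B15, which conjugates androgens, had 3.44, 3.88 and 4.72 in HUH7, against 2.50, 2.75 and 3.02 in PLC/PRF/5 (difference 1.18, again a lower bound). These 4 genes separated the lines array by array. UGT2B11, a UGT2B enzyme for oxidised fatty acids, was higher in HUH7 by 1.05 with overlapping arrays. UGT2B7, the morphine and estrogen UGT, had medians of 5.88 in HUH7 and 5.98 in PLC/PRF/5 and did not pass (difference 0.05, adjusted p 0.698), although its course over time differed between the lines. UGT2B17, an androgen UGT, stayed near the dim end of the array in either line (medians 2.62 in HUH7 and 2.60 in PLC/PRF/5).

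Of the 10 SULT genes, 3 were higher and 4 lower in HUH7. SULT1C2, a SULT1C enzyme for phenolic compounds, had lowest, median and highest levels of 4.40, 4.83 and 5.64 in HUH7, against 2.75, 3.13 and 3.66 in PLC/PRF/5, and SULT2B1 had 4.31, 4.62 and 4.85 in HUH7, against 6.02, 6.33 and 6.82 in PLC/PRF/5. Neither gene overlapped between the lines, and their differences were 1.81 and -1.77. A less bright SULT1C2 probe set kept the direction but lay closer, with means over all arrays of 3.61 (HUH7) and 2.99 (PLC/PRF/5). The size of the SULT1C2 difference thus depends on the probe set. SULT2A1 was higher in HUH7 by 1.92 (SE 0.089, adjusted p 2.51e-18), but its arrays overlapped, with 6.97, 7.87 and 9.11 in HUH7, against 4.49, 5.89 and 8.31 in PLC/PRF/5. SULT1A2, a phenol sulfotransferase, was higher by 0.45, and SULT1C4, known for its fetal expression, was lower by 0.37 with medians of 9.20 in HUH7 and 9.58 in PLC/PRF/5. SULT1E1, the estrogen sulfotransferase, had near-equal medians of 4.87 and 4.89 in HUH7 and PLC/PRF/5.

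Of the 13 GST genes, 5 were higher and 7 lower in HUH7. GSTA2 had 5.47, 5.83 and 6.07 in HUH7, against 3.27, 3.60 and 4.18 in PLC/PRF/5 (difference 2.18, SE 0.052). Its relative GSTA1 differed by 0.15 only, with medians of 4.12 and 3.92 in HUH7 and PLC/PRF/5. GSTA4, which detoxifies the lipid aldehyde 4-hydroxynonenal, was lower in HUH7 (-0.37, SE 0.029), with overlapping levels of 8.26, 8.62 and 9.13 in HUH7, against 8.65, 8.89 and 9.72 in PLC/PRF/5. The mu class genes GSTM5 and GSTM3 were lower in HUH7 by 1.03 and 0.79 without overlap. The GSTM5 probe set may bind several transcripts, and its mean over all arrays was 5.62 (HUH7) against 6.64 (PLC/PRF/5). Less bright GSTM5 probe sets kept the direction but lay closer, at 5.82 against 6.11 and at 4.64 against 4.87, HUH7 first. The size of the GSTM5 difference thus depends on the probe set, and overlap is not given for the less bright ones. GSTP1, the pi class enzyme common in tumours, was lower by 0.70 with medians of 12.67 in HUH7 and 13.38 in PLC/PRF/5. GSTM4, another mu class gene, was lower by 0.56 from its brightest probe set but higher by 0.19 when all its probe sets were averaged, so its direction depends on the probe set. In all, 10 of the 35 genes, each by its brightest probe set, had no overlap between the lines. They were UGT2B4, UGT2B15, UGT1A6, UGT2A3, SULT1C2, SULT2B1, GSTA2, GSTM3, GSTM5 and GSTP1. Overlap was not counted over all genes, of which 84.9% passed the test. This count thus has no background beside it and does not show whether these genes differ from others.

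The other line calls were of 0.38 or less in size. SULT1B1, a thyroid hormone sulfotransferase, was lower in HUH7 (-0.38, medians 4.26 in HUH7 and 4.66 in PLC/PRF/5), as were UGT3A1 (-0.35) and the theta class gene GSTT1 (-0.34). Differences of 0.24 or less in size were called for SULT6B1, GSTA3, UGT2B10 and UGT2B28, lower in HUH7, and for GSTM1, GSTA5, UGT2A1, UGT2B17 and GSTT2, higher in HUH7. UGT2B7, UGT3A2, SULT1C3, SULT1E1, SULT4A1 and GSTT4 did not pass. Means over all arrays, HUH7 first, ran against the call for less bright probe sets of SULT6B1 (3.20, 3.07), UGT3A1 (2.52, 2.46) and GSTA1 (2.90, 2.96). Another less bright probe set kept the direction for UGT3A1 (3.61, 3.76) and for GSTA1 (3.74, 3.66). Several of these genes were dim in either line: UGT2A1, UGT2B17, UGT2B28, GSTA3, GSTA5 and GSTT4 had medians between 2.55 and 3.01, well under the median probe set. With mock arrays only or with a time left out, the calls of GSTA1, GSTA5, GSTM1, GSTT1, GSTT2, UGT2A1, UGT2B10, UGT2B17 and UGT2B28 were lost in at least 1 setting.

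**Figure D1:**
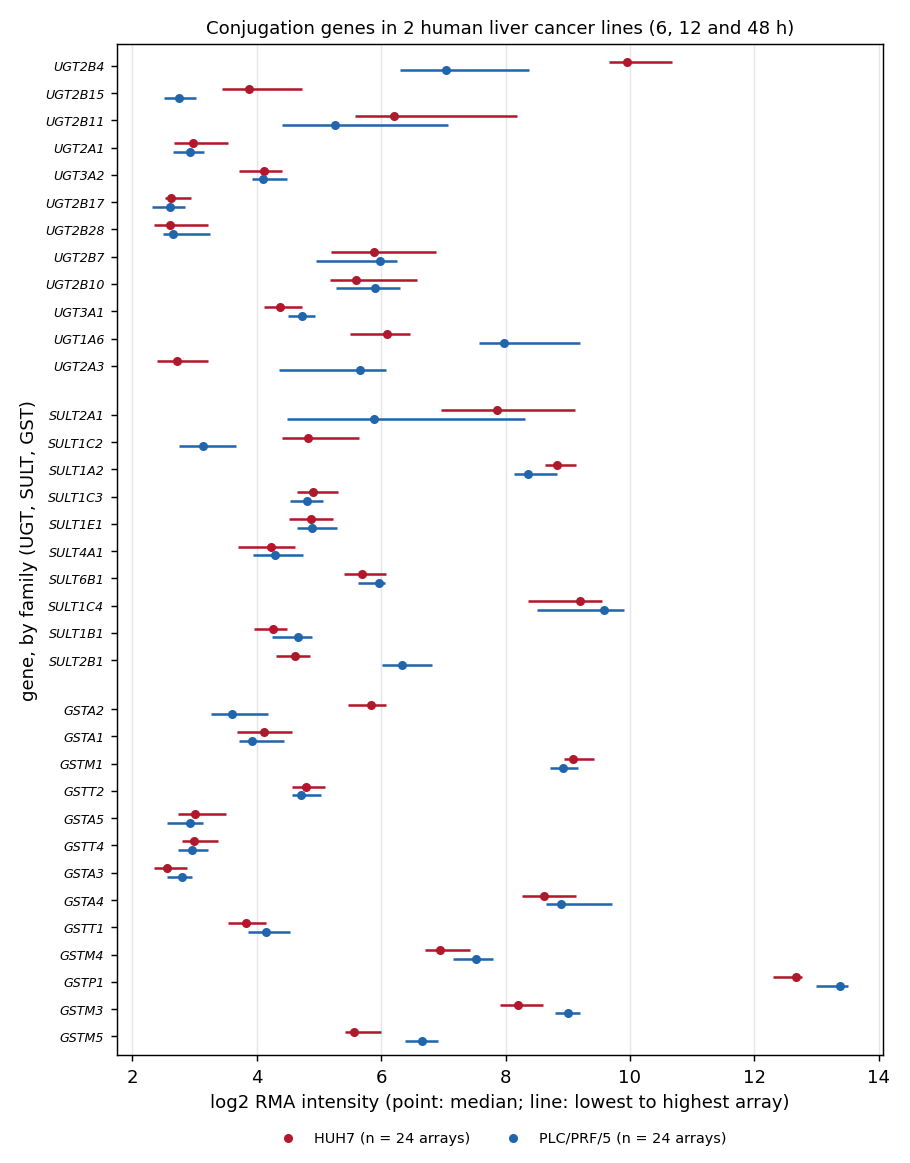
Log2 intensity of the human genes in HUH7 and PLC/PRF/5 at 6, 12 and 48 h (24 arrays per line), by family; points are medians and lines run from the lowest to the highest array. UGT2B4, GSTA2 and SULT1C2 lie higher in HUH7 and UGT2A3, UGT1A6 and SULT2B1 higher in PLC/PRF/5 with no overlap, while SULT2A1 spreads widely in each line.

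Genes that act around these enzymes also differed between the lines. The hepatocyte list was higher in HUH7 for 7 of 9 genes and lower for 1, and the 5 proliferation genes were all higher. Of 14 genes that supply UDP-glucuronate, PAPS or glutathione, 5 were higher and 8 lower in HUH7, among them GCLC, the catalytic subunit of the first enzyme of glutathione synthesis (-1.69), and its modifier subunit GCLM (-1.29). Of 11 genes for export or further processing of conjugates, 2 were higher and 9 lower in HUH7. ABCG2, an efflux pump for sulfate conjugates, was lower by 2.75 and ABCC2, the canalicular pump for glucuronides, by 2.39, while ABCC3, the basolateral pump, was higher by 2.52. Among 12 regulators, 5 were higher and 6 lower, with NR1H4, the bile acid receptor FXR, higher by 4.89 and its partner receptor RXRA by 2.14. Other conjugating enzymes split 5 higher and 7 lower of 15, with BAAT, which couples bile acids to amino acids, lower by 3.49 in HUH7. The part of these genes in the differences above was not tested.

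Against mock, nearly none of these genes passed for any siRNA. In HUH7, 1 of the 35 genes passed in 1 of 7 siRNA contrasts: SULT2A1 was lower under APOB-Hs3. Over all genes 2.53%, 2.42%, 2.22% and 1.62% passed with APOB-Hs1 to APOB-Hs4 in number order. Apob-Mm1 had 0%, Apob-Mm2 had 1.29% and the RAD18 siRNA 0.897%, so 1 call among 35 genes is near the background. The median difference over the 35 genes lay between -0.01 and 0.06 for every siRNA. At an unadjusted p under 0.05 the siRNAs had 1 to 6 of the 35 genes, and 3.54% to 16% of all genes.

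SULT2A1 levels at 6, 12, 24 and 48 h in HUH7 were 7.85, 6.97, 7.16 and 7.08 with APOB-Hs3 and 7.90, 7.47, 7.86 and 8.30 with mock. With mock and each other siRNA the 48 h array was higher than the 6 h array, and the 48 h levels were 8.76, 9.11 and 8.69 for APOB-Hs1, -Hs2 and -Hs4, 8.51 and 8.16 for Apob-Mm1 and -Mm2, and 8.70 for RAD18. APOB-Hs3 was thus the lowest of 8 treatments at 12, 24 and 48 h, and within the others at 6 h. As a percentage of mock its intensity was 96.2% at 6 h, 70.7% at 12 h, 61.4% at 24 h and 42.8% at 48 h. Over the 4 times the difference was -0.62 (SE 0.164, adjusted p 0.0412 by limma over all genes), and it was negative at 4 of 4 times. The call was lost without the 12 h arrays (-0.66, adjusted p 0.13), without the 24 h arrays (-0.59, adjusted p 0.43) and without the 48 h arrays (-0.42, adjusted p 0.299). Set against the other 6 siRNAs, a comparison added after the data were seen in which 3.65% of all genes passed, the difference was -0.81 (adjusted p 0.000129).

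In PLC/PRF/5 the same gene at 6, 12 and 48 h had 5.63, 4.95 and 4.49 with APOB-Hs3 and 6.05, 5.69 and 6.82 with mock. APOB-Hs3 was the lowest of 8 treatments at each of these times, at 74.4%, 59.8% and 19.9% of the mock intensity. The 48 h levels of SULT2A1 were scattered in this line, with 8.31, 6.64 and 7.33 for APOB-Hs1, -Hs2 and -Hs4, 6.87 and 5.17 for Apob-Mm1 and -Mm2, and 6.93 for RAD18. The difference for APOB-Hs3 over the 3 times was -1.17 (SE 0.43, adjusted p 0.476) and did not pass. The effect of APOB-Hs3 on SULT2A1 in HUH7 minus that in PLC/PRF/5 was 0.57 (SE 0.51, adjusted p 1), so no difference between the lines was detectable. The mock arrays are shared by all siRNA contrasts of a line.

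**Figure D2:**
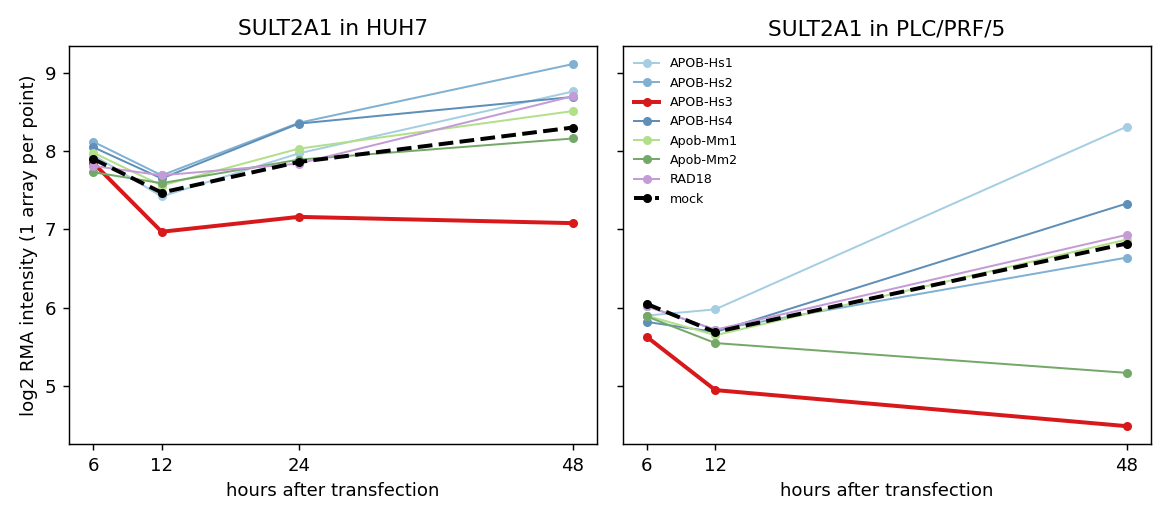
Log2 intensity of SULT2A1 over time for each of 8 treatments (1 array per point) in HUH7 (6, 12, 24 and 48 h) and PLC/PRF/5 (6, 12 and 48 h). APOB-Hs3 ends at 7.08 in HUH7 and 4.49 in PLC/PRF/5 at 48 h, against 8.30 and 6.82 in mock.

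Setting each siRNA against the other siRNAs in place of mock, again added after the data were seen, called 3 more pairs of gene and siRNA in HUH7. SULT1C2 at 6, 12, 24 and 48 h had 4.40, 4.74, 4.60 and 4.67 with the RAD18 siRNA and 4.84, 4.40, 4.88 and 5.37 with mock, and the RAD18 array was the lowest of 8 at 6, 24 and 48 h. Its difference from the other siRNAs was -0.45 (adjusted p 0.00358), where 2.81% of all genes passed. UGT2B4 was higher with Apob-Mm2, at 10.11, 9.94, 10.36 and 10.68, against 10.02, 9.85, 9.80 and 10.04 with mock (0.30 from the other siRNAs, adjusted p 0.0405, with 4.28% of all genes). GSTM1 was lower with APOB-Hs4 by a small amount (-0.14, adjusted p 0.0493, with 2.58% of all genes). None of these pairs passed against mock.

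Genes outside these families were also lower with APOB-Hs3 in HUH7, by limma's test: HMOX1, heme oxygenase (-1.66), TPMT, thiopurine methyltransferase (-0.96), CYP1A1, a cytochrome P450 of phase I (-0.46), and SLC35D1, which carries UDP-glucuronate into the endoplasmic reticulum (-0.30). These genes were picked from several lists for the size of their difference, and list members without a call or with higher levels are not counted here. The summed NRF2 targets ran from 26780 to 31710 with APOB-Hs3, against 30700 to 32630 with mock. With the RAD18 siRNA they ran from 25340 to 29370, so a lower range was not particular to APOB-Hs3. The sequences of the siRNAs were not used here, so a seed match of SULT2A1 or the genes named here to APOB-Hs3 was not tested.

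No conjugation gene passed in PLC/PRF/5 for any siRNA. Over all genes 0.6%, 0.364%, 0.291% and 0.202% passed for APOB-Hs1 to APOB-Hs4 in number order, 0% and 0.134% for Apob-Mm1 and Apob-Mm2, and 0.235% for the RAD18 siRNA. Between 0 and 3 of the 35 genes, and 1.97% to 9.87% of all genes, had an unadjusted p under 0.05. After SULT2A1, the largest difference belonged to UGT2A3 with RAD18 siRNA. Its levels at 6, 12 and 48 h were 5.35, 5.70 and 4.35 with RAD18 and 5.84, 6.08 and 6.03 with mock, lower at each time, with a difference of -0.85 (SE 0.202) and an adjusted p of 0.107. The mean of all siRNAs minus mock called 0 of the 35 genes in HUH7, where 0.207% of all genes passed, and 0 in PLC/PRF/5, where 0.0056% passed. The largest such differences in HUH7 were 0.21 for GSTM3 and 0.20 for UGT1A6, and in PLC/PRF/5 -0.48 for UGT2A3 and -0.19 for UGT2B7, and 1 of the 35 genes in each line had an unadjusted p under 0.05 by limma (of all genes, 9.45% in HUH7 and 4.54% in PLC/PRF/5). Tests of a difference in siRNA response between the lines called 0 of the 35 genes for each siRNA and for their mean, where 0% to 0.0112% of all genes passed and 0 to 3 of the 35, against 1.45% to 6.91% of all genes, had an unadjusted p under 0.05. The largest were 0.75 for UGT2B7 with APOB-Hs4 (adjusted p 0.684) and 0.73 for UGT2A3 with RAD18.

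In Hepa1-6 no conjugation gene passed against mock either, where 0.766%, 0.588% and 1.19% of all genes passed for APOB-Hs1, APOB-Hs3 and APOB-Hs4. An unadjusted p under 0.05 was reached by 4, 3 and 6 of the 41 genes, and by 12%, 9.06% and 14.6% of all genes. Gsta2, an alpha class GST that responds to NRF2 in mice, differed most. At 6, 12, 24 and 48 h it had 5.20, 5.84, 6.42 and 5.81 with APOB-Hs4 and 5.10, 5.52, 5.85 and 4.22 with mock (difference 0.64, SE 0.287, adjusted p 0.317), and most of that lay at 48 h. Next came Gsta4, which detoxifies the lipid aldehyde 4-hydroxynonenal, with -0.38 for APOB-Hs1. For the mean of the siRNAs 0.0365% of all genes and 0 of the 41 passed (2 at an unadjusted p under 0.05, with 9.3% of all genes), with 0.21 for Gstt2 and 0.18 for Ugt2b35 as the largest differences. Against the other siRNAs in place of mock, Gstm4, a mu class GST, was lower with APOB-Hs1 (-0.22, adjusted p 0.0459), where 3.37% of all genes passed.

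More of these genes passed for time after transfection than for any siRNA. In HUH7 at 48 h, as against 6 h, 14 of the 35 genes were higher and 2 lower, while 29.5% of all genes passed (16.5% higher, 12.9% lower). The UGT genes gave 6 higher and 0 lower of 12, the SULT genes 3 higher and 1 lower of 10, and the GST genes 5 higher and 1 lower of 13. The median difference was 0.09 over the 35 genes.

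UGT2B11 rose most. Its lowest, median and highest level over 8 treatments in HUH7 was 5.58, 6.06 and 6.34 at 6 h, 5.72, 5.93 and 6.35 at 12 h, 6.19, 6.63 and 7.12 at 24 h and 6.43, 7.31 and 8.18 at 48 h. All 48 h arrays lay above all 6 h arrays, and the difference was 1.29 (SE 0.167, adjusted p 9.10e-07), positive in 8 of 8 treatments. Its close relative UGT2B10, which conjugates nicotine, rose by 0.47, with medians of 6.09 at 48 h and 5.62 at 6 h, and UGT2B15 rose by 0.38, with medians of 4.04 and 3.83 at these times. Smaller rises were called for UGT2A3 (0.28), UGT2A1, known from olfactory tissue (0.21), and the steroid UGT UGT2B28 (0.18), all 3 of them dim, with medians under 3 at 6 h. Calls of UGT2A1 and UGT2B28 were lost without the 24 h arrays, and UGT2B28 without the APOB-Hs3 arrays had 0.11 (adjusted p 0.173). With siRNA arrays only, the calls of UGT2A3 (0.25, adjusted p 0.0534), UGT2A1 (0.19, adjusted p 0.121) and UGT2B28 (0.20, adjusted p 0.0607) were lost.

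Among the SULT genes, SULT1C2 rose by 0.55 (SE 0.084) with levels of 4.67, 5.45 and 5.64 at 48 h and 4.40, 4.83 and 5.04 at 6 h, and in 8 of 8 treatments. SULT2A1 rose by 0.49 in 7 of 8 treatments, the exception being APOB-Hs3, after a fall of 0.42 at 12 h. SULT1E1 rose by 0.25, in 7 of 8 treatments with mock the exception, and SULT1C4 fell by 0.33. Among the GST genes, GSTA4 rose by 0.37, with levels of 8.71, 8.96 and 9.13 at 48 h and 8.26, 8.62 and 8.67 at 6 h, which do not overlap. GSTM5 and GSTM3 each rose by 0.28, the theta class gene GSTT2 by 0.22 and the mu class gene GSTM1 by 0.10, of which the GSTM1 call was lost without the 12 h or the 24 h arrays. GSTP1 fell by 0.23, with levels of 12.30, 12.47 and 12.57 at 48 h and 12.58, 12.71 and 12.76 at 6 h, in 8 of 8 treatments.

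At earlier times fewer of these genes passed in HUH7. At 12 h, when 18.6% of all genes passed (7.56% higher, 11% lower), 3 of the 35 genes were higher (GSTM3 by 0.27, UGT3A1 by 0.23 and SULT6B1 by 0.18) and 3 lower (SULT2A1, GSTA1 and GSTA2). UGT3A1 is a UGT that uses N-acetylglucosamine as its sugar. At 24 h, with 20.7% of all genes (9.52% higher, 11.2% lower), 6 were higher, led by UGT2B11 (0.59) and UGT2B15 (0.39), and GSTA1 and GSTA2 were again lower. GSTA1 levels were 4.10, 4.30 and 4.56 at 6 h, 3.68, 4.01 and 4.15 at 12 h, 3.65, 3.80 and 3.92 at 24 h and 3.89, 4.11 and 4.45 at 48 h. GSTA2 levels were 5.75, 5.98 and 6.05 at 6 h, 5.47, 5.70 and 5.85 at 12 h, 5.45, 5.63 and 5.77 at 24 h and 5.65, 5.83 and 6.07 at 48 h. GSTA1 and GSTA2, whose promoters are printed above, fell by 0.49 and 0.30 at 24 h and did not pass at 48 h. Any part of the promoters in this was not tested. Between the lines, GSTA2 differed far more than GSTA1. Whether their probe sets also pick up each other's transcripts was not tested.

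In PLC/PRF/5 at 48 h, as against 6 h, 5 genes were higher and 4 lower of 35, while 18.7% of all genes passed (12% higher, 6.64% lower). At 12 h 0 of the 35 genes passed, against 3.49% of all genes. An unadjusted p under 0.05 by limma was reached there by 5 of the 35 genes, and by 3344 of all 17846 genes. UGT1A6 rose most, with lowest, median and highest levels of 7.57, 7.73 and 7.82 at 6 h, 7.84, 7.98 and 8.13 at 12 h and 8.16, 8.77 and 9.19 at 48 h. These ranges do not overlap, and the 48 h difference was 1.03 (SE 0.089, adjusted p 1.88e-07), positive in 8 of 8 treatments. UGT2B11 rose by 0.86 in 6 of 8 treatments, with medians of 6.17 at 48 h and 5.06 at 6 h, and 1 array at 48 h as low as 4.41. GSTA4 rose by 0.50 in 8 of 8 treatments, UGT2B4 by 0.47 and GSTA2 by 0.27.

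Of the genes that fell in PLC/PRF/5, UGT2B7 fell most (-0.58, SE 0.093, adjusted p 0.000203), with 4.96, 5.49 and 5.86 at 48 h and 5.68, 6.14 and 6.26 at 6 h, lower in 7 of 8 treatments. UGT2A3 was lower by 0.42 (but higher in 2 of 8 treatments, mock among them) and SULT1E1 by 0.20 (but higher with mock). GSTP1 was lower by 0.23, in 8 of 8 treatments. GSTA4 and GSTP1 thus moved the same way in either line, each in all 8 treatments. Without the 12 h arrays, which also help to estimate the spread, only UGT1A6, UGT2B11, GSTA4, UGT2B7 and GSTP1 passed (5 of 35). The share of all genes that passed in that setting is not given here. UGT2B4 without the APOB-Hs3 arrays had 0.35 (adjusted p 0.13), and SULT1E1 without the widely spread arrays had -0.15 (adjusted p 0.164). The calls of UGT2A3 and GSTA2 were also lost in other settings.

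The change from 6 h to 48 h itself differed between HUH7 and PLC/PRF/5 for 7 of the 35 genes, where 11.7% of all genes passed. UGT1A6 had the largest such difference, -1.26 (SE 0.150, adjusted p 3.35e-07). In HUH7 its median was 5.67 at 48 h and 6.09 at 6 h, lower in 6 of 8 treatments, against the rise in PLC/PRF/5. UGT2B7 differed by 0.81 (SE 0.161, adjusted p 0.000707), with HUH7 medians of 6.06 at 48 h and 5.90 at 6 h. UGT2A3 (0.70) and SULT1E1 (0.45) rose in HUH7 and fell in PLC/PRF/5. GSTA1 and GSTA2 differed by -0.39 and -0.34, and GSTM5 by 0.25. The GSTM5 call was lost when its probe sets were averaged (0.10, adjusted p 0.281) and the GSTA2 call without the widely spread arrays (adjusted p 0.0606).

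**Figure D3:**
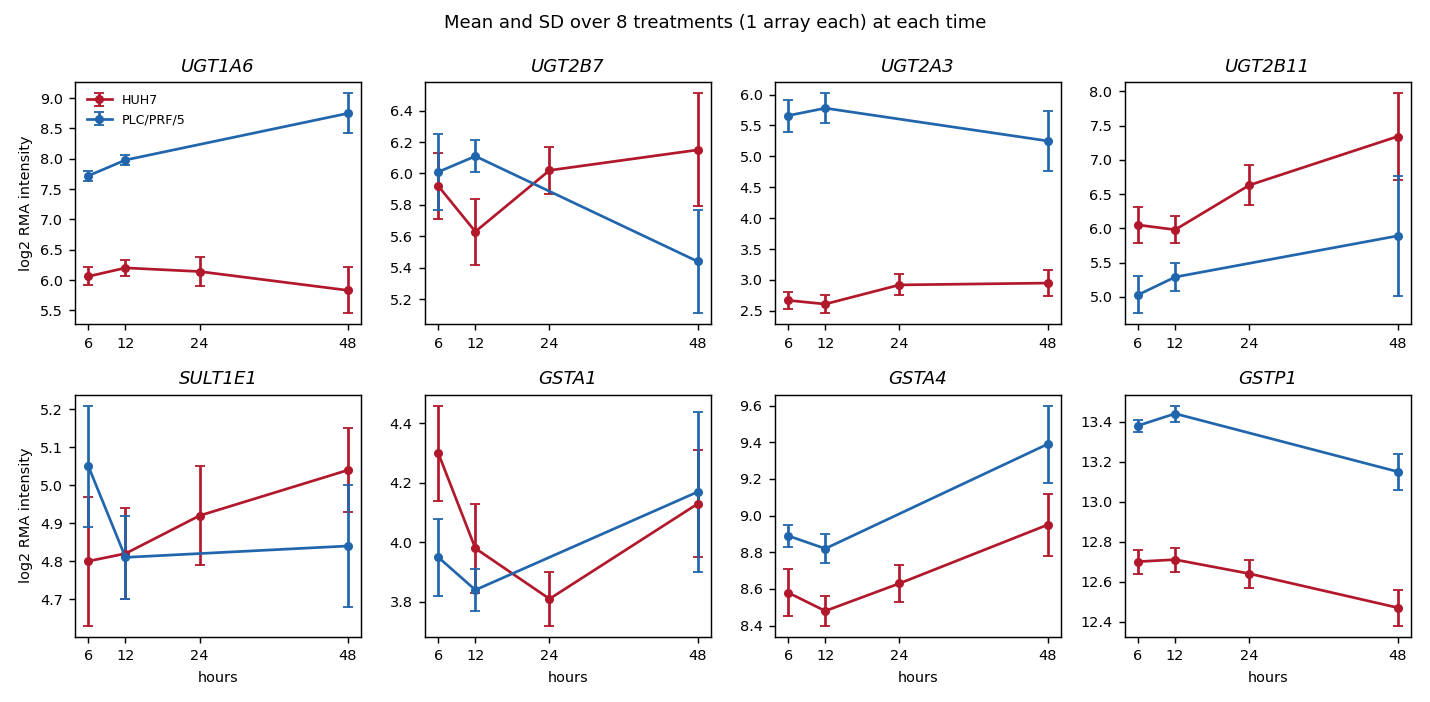
Log2 intensity of 8 human genes against hours after transfection in HUH7 and PLC/PRF/5; points are means over 8 treatments (1 array each) and bars their SD. UGT2B11 and GSTA4 climb in either line, UGT1A6 climbs in PLC/PRF/5 (median 7.73 at 6 h, 8.77 at 48 h) and not in HUH7, and GSTP1 falls slightly in either line.

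Hepa1-6 at 48 h, as against 6 h, had 8 genes higher and 2 lower of 41, while 17.2% of all genes passed (8.71% higher, 8.45% lower). Ugt2b35, a mouse UGT2B gene, had 8.19 to 8.27 at 6 h, 8.24 to 8.44 at 12 h, 8.52 to 9.08 at 24 h and 8.84 to 9.65 at 48 h over 4 treatments. Its 48 h arrays all lay above its 6 h arrays, a difference of 1.05 (SE 0.120, adjusted p 2.75e-05). The theta class gene Gstt2 rose by 0.88 in 4 of 4 treatments, with 5.36 to 6.52 at 48 h and 4.86 to 5.18 at 6 h. Sult1c2 rose by 0.85 in 3 of 4 treatments, Ugt2b34 by 0.59, Gstt1 by 0.43, the thyroid hormone sulfotransferase Sult1b1 by 0.40, and the mu class genes Gstm4 and Gstm2 by 0.26 and 0.21.

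Ugt1a6b and Sult2b1 were the genes that fell in Hepa1-6, by 0.85 (SE 0.170, adjusted p 0.00272) and by 0.48. Ugt1a6b, a phenol UGT, had 6.80 to 6.98 at 6 h, 7.25 to 7.52 at 12 h, 6.73 to 7.67 at 24 h and 5.54 to 6.37 at 48 h, and all its 48 h arrays lay below all others. The alpha class gene Gsta3 followed a like course, with means of 7.82, 8.62, 8.71 and 7.27 at 6, 12, 24 and 48 h. It was called higher at 24 h (0.89, adjusted p 0.0137), along with Ugt2b35 (0.63), Gstm2 (0.25) and Gstm4 (0.23), when 5.54% of all genes passed (3.27% higher, 2.26% lower), and not at 48 h (-0.55, adjusted p 0.058). At 12 h 0 of 41 genes passed, against 0.775% of all genes. An unadjusted p under 0.05 by limma was reached there by 6 of the 41 genes, and by 2554 of all 21931 genes. Averaging all probe sets ended the Sult1b1 call, and leaving out the 12 h or the 24 h arrays ended the Gstm2 call. With siRNA arrays only, the calls of Sult1c2 (0.78, adjusted p 0.0763), Gstm4 (0.26, adjusted p 0.0595), Sult1b1 (0.39, adjusted p 0.0547) and Gstm2 (0.20, adjusted p 0.172) were lost.

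Over the same interval, genes induced through the aryl hydrocarbon receptor and NRF2, which also drive parts of the conjugation families, were mostly lower. Of 5 receptor targets, 3 fell and 1 rose at 48 h in HUH7, 3 fell in PLC/PRF/5 and 3 in Hepa1-6, among them CYP1A1 (-1.03 in HUH7, -1.98 in PLC/PRF/5) and Cyp1a1 (-1.63 in Hepa1-6). Of 8 NRF2 targets, 6 fell and 1 rose in HUH7, 4 fell and 2 rose in PLC/PRF/5, and 5 fell and 1 rose in Hepa1-6. NQO1, a quinone reductase, had -0.22 in HUH7 and -0.32 for PLC/PRF/5, and Nqo1 had -1.83 in Hepa1-6, and each passed. Cofactor genes were mixed, with 5 higher and 4 lower of 14 in HUH7, 3 and 3 in PLC/PRF/5, and 2 and 6 in Hepa1-6. CTH, which makes cysteine for glutathione, rose by 0.65 in HUH7 and 0.49 in PLC/PRF/5 and Cth by 0.72 in Hepa1-6, whereas GCLM (-0.72 in HUH7, -0.30 in PLC/PRF/5) and Gclm (-1.16) fell. Among regulators NR1H4 rose by 0.98 in HUH7 and 0.81 in PLC/PRF/5. The hepatocyte list gave 0 higher and 4 lower of 9 in HUH7, 0 and 5 of 9 in PLC/PRF/5, and 2 and 0 of 8 in Hepa1-6, and its part in the changes with time was not tested.

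The largest differences of all were between Hepa1-6 and liver. Under the same 3 siRNAs (12 arrays of Hepa1-6, 9 livers), 5 of the 41 genes were higher and 32 lower in Hepa1-6, while 83.7% of all genes passed (56.7% higher, 27% lower). The median difference was -3.20 over the 41 genes, of which 14 had a Hepa1-6 level too dim to give more than a bound, and 0.23 over all genes. UGT genes gave 0 higher and 11 lower of 13, SULT genes 3 and 8 of 12, and GST genes 2 and 13 of 16. In bulk samples, fewer cells of a type and less RNA per cell cannot be told apart, and tissue and cultured line cannot be told apart from the route and time of the siRNA.

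Several UGT genes were dim in Hepa1-6 and bright in liver. Ugt2b36, a mouse UGT2B gene, had a lowest, median and highest level of 2.51, 2.64 and 2.95 in Hepa1-6 and of 12.77, 13.12 and 13.18 in liver, a difference of -10.39. Ugt2b5 and Ugt2b1 differed by -9.47 and -9.21, and Ugt2a3 by -8.46, with 2.70, 2.82 and 3.10 in Hepa1-6 and 11.17, 11.26 and 11.56 in liver. All 4 passed, and each value is a lower bound in size. Ugt3a2, which uses other sugars than glucuronic acid, differed by -7.64, and Ugt1a6b by -6.38. Not every UGT was dim: Ugt2b34 and Ugt2b35 had medians of 9.40 and 8.61 in Hepa1-6 and 12.71 and 10.62 in liver. Ugt2a2 and Ugt2b38 were dim in either and did not pass.

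Among sulfotransferases, Sult2a1 had 2.17, 2.34 and 2.65 in Hepa1-6 and 11.35, 11.90 and 12.35 in liver, a difference of -9.53. Sult1d1, which sulfates catecholamines in mice, differed by -7.94, and the values of both are lower bounds in size for the probe sets used. A less bright Sult2a1 probe set kept the direction but lay closer, with means of 3.15 in Hepa1-6 and 5.85 in liver. The size of the Sult2a1 difference thus depends on the probe set. The difference was -6.99 for Sult1a1, the main phenol sulfotransferase, with a Hepa1-6 median of 3.11. Sult2b1, the mouse cholesterol sulfotransferase, ran the other way and was higher by 2.89, with 6.01, 6.64 and 6.94 in Hepa1-6 and 3.60, 3.73 and 4.05 in liver. Sult4a1, known from brain, was higher by 0.66, and Sult6b1 by 0.23, a call lost under quantile normalization and in 2 other settings. With a liver median of 2.98, the Sult6b1 value is a lower bound in size.

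Of the glutathione S-transferases, the theta class genes Gstt3, Gstt1 and Gstt2 were lower in Hepa1-6 by 7.07, 5.64 and 5.29, the mu class gene Gstm6 by 5.77 and the alpha class gene Gsta3 by 5.45. Gsta4 was lower by 1.16 only. Gstm5 had 8.51, 8.69 and 9.02 in Hepa1-6 and 8.61, 8.79 and 8.94 in liver and did not pass (-0.06, SE 0.055), and Gstp1, the mouse pi class gene, was higher by 0.33, with 12.40, 12.57 and 12.69 in Hepa1-6 and 12.05, 12.24 and 12.45 in liver. Gstt4, with medians of 3.20 in Hepa1-6 and 2.84 in liver, was higher by 0.37, a lower bound in size. In all, 33 of the 41 genes, each by its brightest probe set, had no overlap between Hepa1-6 and liver. Overlap was not counted over all genes, of which 83.7% passed the test. This count thus has no background beside it and does not show whether these genes differ from others.

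Further genes were lower in Hepa1-6. Ugt3a1, with medians of 2.55 in Hepa1-6 and 8.79 in liver, differed by -6.36, and Sult3a1, with medians of 2.57 and 9.85, by -5.88, each a lower bound in size. Sult1b1 differed by -4.81 and Gstm4 by -3.30. Among the brighter ones, Gstm1, the main mu class GST of mouse liver, had medians of 9.17 in Hepa1-6 and 12.72 in liver (difference -3.57), and Gstm7 had 7.12 and 10.28 (difference -3.20). Gsta1 and Gsta2 differed by -3.08 and -2.80 with a wide range in liver, from 4.12 to 7.09 for Gsta1 and from 6.85 to 9.16 for Gsta2. Sult1e1, the estrogen sulfotransferase, had medians of 3.12 in Hepa1-6 and 5.32 in liver, and Ugt2b37 had 2.44 and 5.37. The Gsta1 and Ugt2b37 differences are lower bounds as well. Sult1c1, with medians of 2.65 in Hepa1-6 and 2.68 in liver, was dim in each and did not pass.

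**Figure D4:**
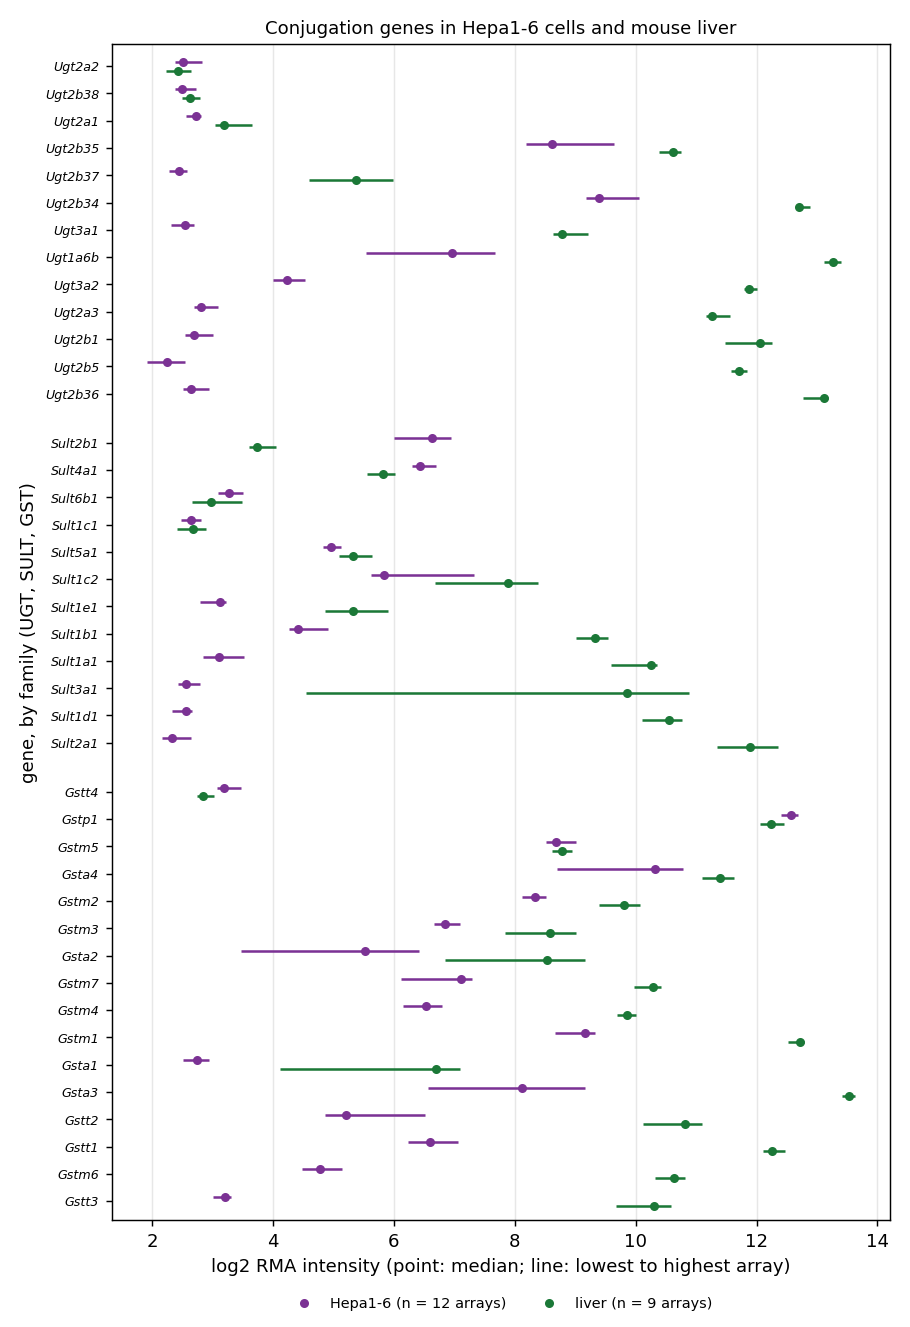
Log2 intensity of the 41 mouse genes in Hepa1-6 (12 siRNA arrays) and liver (9 arrays), by family; points are medians and lines run from the lowest to the highest array. Most genes lie far lower in Hepa1-6, such as Ugt2b36 with medians of 2.64 in Hepa1-6 and 13.12 in liver, whereas Sult2b1 lies higher and Gstm5 and Gstp1 lie close together.

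Hepatocyte genes moved alongside: 7 of 8 were lower and 1 higher in Hepa1-6, with a median of -7.59, and Alb, the albumin gene, had medians of 12.04 in Hepa1-6 and 14.76 in liver. Regulators of conjugation genes gave 3 higher and 10 lower of 13, with Nr1i3, the constitutive androstane receptor, lower by 6.62 and Nr1i2, the pregnane X receptor, by 4.55. Other conjugating enzymes gave 2 higher and 12 lower of 15, led by Inmt, an N-methyltransferase (-9.75). NRF2 targets ran the other way, with 7 higher and 0 lower of 8 and a median of 1.44. Markers of other liver cells were lower in Hepa1-6 for 5 of 6 Kupffer cell, 5 of 5 endothelial, 4 of 5 stellate, 4 of 4 lymphocyte and 4 of 4 neutrophil genes. Of 3 cholangiocyte genes, Sox9 (3.74) and Krt7 (1.59) were higher in Hepa1-6 and Krt19 (-0.55) was lower. Their part in the differences was not tested.

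In liver, where each siRNA was set against the other 2, 0 of the 41 genes passed for APOB-Hs1, APOB-Hs3 or APOB-Hs4 by limma, while 0.328%, 0.0182% and 0.21% of all genes did. An unadjusted p under 0.05 was reached by 14, 6 and 8 of the 41 genes, and by 13.5%, 8.18% and 9.75% of all genes. Sult3a1, an amine sulfotransferase of mouse liver, varied most. Its levels were 10.31, 10.89 and 10.41 in the livers with APOB-Hs1, 7.37, 10.32 and 7.28 with APOB-Hs3 and 9.85, 4.55 and 5.11 with APOB-Hs4. The APOB-Hs1 livers were alike and high, and the other groups each held 1 liver far above its fellows. The difference was 3.12 (SE 1.02, adjusted p 0.22) for APOB-Hs1 and -2.93 (adjusted p 0.356) for APOB-Hs4.

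Gsta1, an NRF2-responsive alpha class GST in mice, had 4.12, 4.24 and 4.73 with APOB-Hs1, 6.70, 6.97 and 6.72 with APOB-Hs3 and 4.80, 6.94 and 7.09 with APOB-Hs4. The APOB-Hs1 livers were all below the others, and liver 1 of APOB-Hs4 was close to them. Gsta2 had 6.85, 7.34 and 7.03 with APOB-Hs1, 8.54, 9.05 and 9.16 with APOB-Hs3 and 7.10, 8.74 and 8.92 with APOB-Hs4, and here liver 1 of APOB-Hs4 lay among the APOB-Hs1 livers. For APOB-Hs1 the differences were -2.17 (SE 0.404, adjusted p 0.057) for Gsta1 and -1.51 (adjusted p 0.091) for Gsta2, and for APOB-Hs3 they were 1.48 (adjusted p 0.409) and 1.25 (adjusted p 0.399). Gstt2 came close as well with APOB-Hs1, at 10.13, 10.52 and 10.49, against 10.81, 10.84 and 10.88 with APOB-Hs3 and 10.82, 11.10 and 10.99 with APOB-Hs4 (-0.53, adjusted p 0.0621), and it was picked out after its values were seen. Its APOB-Hs1 livers lay below all others.

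The count of calls in liver depends on liver 1 of APOB-Hs4, which is among the widely spread arrays. Without it, 8 calls were made, 6 for APOB-Hs1 and 2 for APOB-Hs4, where 2.2% and 0.725% of all genes passed. For APOB-Hs1 they were Gsta1 (-2.54, adjusted p 4.76e-05), Gsta2 (-1.80, adjusted p 0.00127), Gstt2 (-0.57, adjusted p 0.0218), Sult1c2 (-0.96, adjusted p 0.0369), Sult3a1 (3.96, adjusted p 0.0118) and Ugt2b1 (0.45, adjusted p 0.0464). For APOB-Hs4 they were Gsta1 (1.43, adjusted p 0.00733) and Sult3a1 (-4.60, adjusted p 0.0186), with the group left at 2 livers. Without liver 2 of APOB-Hs1, 2 genes passed, Sult1a1 (-0.70) and Gstt3 (-0.63). The share of all genes that passed in that setting is not given here, so this count has no background beside it. NRF2 targets gave 0 calls of 8 for each siRNA in liver, and the summed intensity of that list was 4274 to 4470 with APOB-Hs1, 4362 to 4635 with APOB-Hs3 and 4675 to 4860 with APOB-Hs4. The summed hepatocyte list ran from 102100 to 108500, from 100900 to 104400 and from 100300 to 105700 in these groups, and the Kupffer cell list from 829.3 to 1441, from 1236 to 1930 and from 1089 to 1331. Their part in the differences was not tested.

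**Figure D5:**
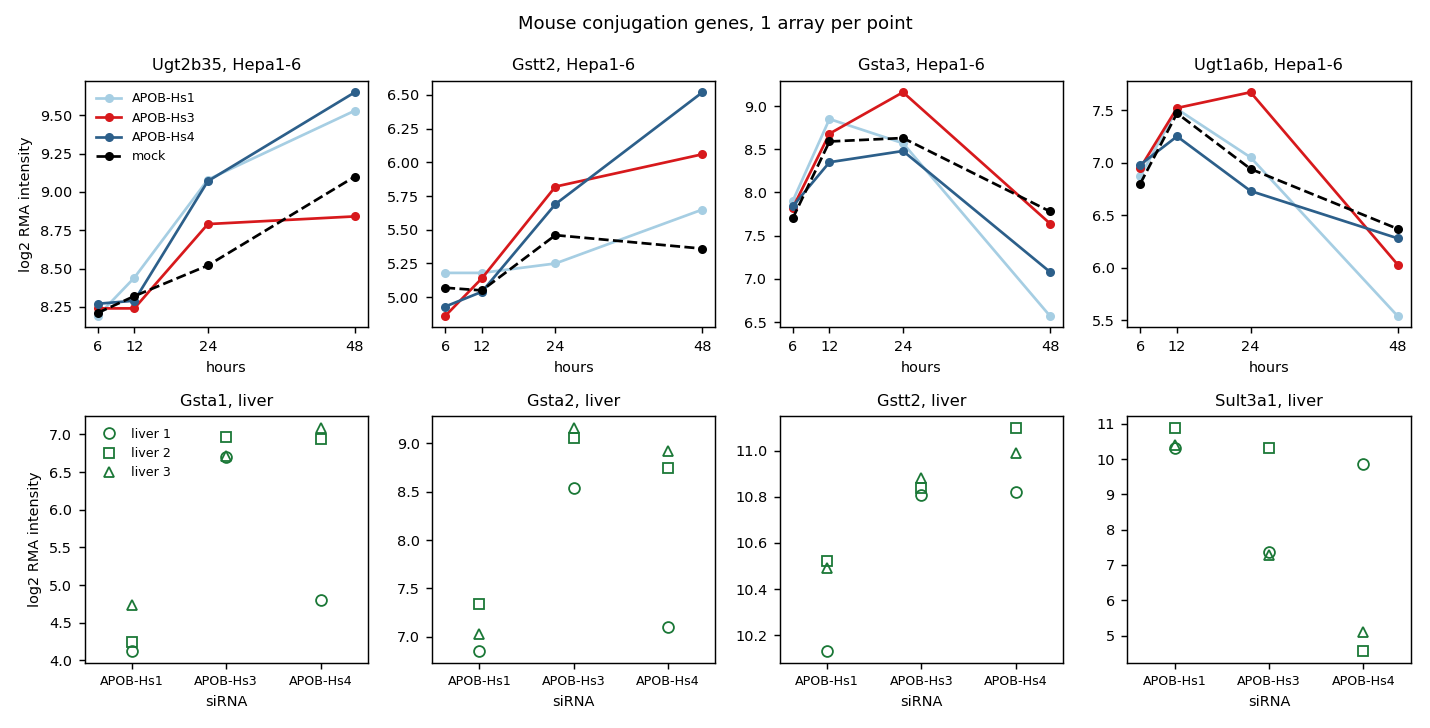
Log2 intensity of mouse genes over time in Hepa1-6 (top row, 4 treatments) and in the 3 livers of each siRNA at 3 d (bottom row), with 1 array per point. Ugt2b35 and Gstt2 climb and Ugt1a6b falls by 48 h in Hepa1-6, while in liver Gsta1 is lowest with APOB-Hs1 (4.12 to 4.73) and Sult3a1 ranges from 4.55 to 10.89.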

How the data were processed

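RNA was measured on 81 one-colour arrays of a custom Affymetrix type: 56 human and 25 mouse. The authors deposited intensity values on a linear scale made by RMA, per the submitters' processing notes; its version is not given in the sources used here. RMA pulls arrays that are normalized together to a common distribution, so a shift of most genes at once may be hidden. Which arrays were normalized together is not stated in the sources used here. Log2 of the deposited intensity was taken here, and median array intensities ran from 31.75 to 35.39 (human cells) and from 19.73 to 22.55 (mouse). The number of arrays limits the precision.

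Each gene took its brightest probe set by mean log2 value (17846 human and 21931 mouse genes). Of 43483 human and 43681 mouse probe sets, 25919 and 30342 had 1 symbol, 17564 and 13339 had none, and 0 had several. Differences were fitted across all genes with limma 3.58.1 in R 4.3.3: treatment plus time within a line, each treatment-and-time pair as a block between HUH7 and PLC/PRF/5, group means between Hepa1-6 and liver, and each siRNA minus the mean of the other 2 in liver. P-values are two-sided, adjusted by Benjamini-Hochberg within each contrast, and called under 0.05. The fit was tested on simulated data. Named genes are all that passed where 12 or fewer did, otherwise the 8 largest differences and any gene named elsewhere, and the 2 largest where none passed; other genes were chosen after their values were seen. The members and lists were chosen with earlier results of these data known.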

Additional observations from a re-analysis of the deposited data

Results flagged for a closer look

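Within groups of 4 arrays of 1 treatment in HUH7 or in Hepa1-6, 9 of 168 tested sets held an array far from the other 3, after the mean of that time over treatments was subtracted. Chance alone marks about 5% of such sets. In HUH7 these were GSTM3 with APOB-Hs3 at 48 h (0.19 from the mean of its time), UGT2A1 with APOB-Hs4 at 12 h (0.44), UGT2A3 with mock at 48 h (0.12) and UGT2B28 with APOB-Hs3 at 48 h (0.48). In Hepa1-6 they were Gstm2 with APOB-Hs1 at 48 h (-0.06), Sult1c2 with mock at 48 h (0.14), Sult2b1 with mock at 48 h (0.13), Ugt2b34 with APOB-Hs3 at 48 h (-0.39) and Ugt2b34 with mock at 6 h (-0.12).

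The change at 48 h against 6 h differed between HUH7 and PLC/PRF/5, by limma's test of the difference itself, for UGT1A6 (-1.26), UGT2B7 (0.81), UGT2A3 (0.70), SULT1E1 (0.45), GSTA1 (-0.39), GSTA2 (-0.34) and GSTM5 (0.25).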

How the results depend on the processing

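Over the genes named by rule, and those called in an siRNA comparison under any setting, 1394 of the values under other settings kept their direction and their side of the threshold, 55 lost the call, 34 gained it and 5 reversed. Those that reversed were GSTM4 between the lines (0.19 with all probe sets averaged), UGT2A1 and UGT2B28 between the lines (-0.01 and 0 with mock arrays only), UGT2B11 with APOB-Hs2 in PLC/PRF/5 (-0.03 without 48 h) and UGT2A3 with Apob-Mm1 in PLC/PRF/5 (0.09 against the mean of the other siRNAs, a setting chosen after seeing the data). The HUH7 siRNA count of 1 was 3 with only genes above the median probe set, 3 with a trended robust prior, 4 against the mean of the other siRNAs, 2 without the widely spread arrays, and 0 to 3 when a time was left out. The further HUH7 calls were GSTM3 with APOB-Hs3 or APOB-Hs4, GSTP1 and UGT1A6 with APOB-Hs2, and the 3 of the report. The Hepa1-6 siRNA count of 0 was 1 against the mean of the other siRNAs. With only genes above the median probe set, and so fewer genes tested, the HUH7 time count was 9 in place of 16, the line count 15 in place of 29 and the line by time count 3 in place of 7. The PLC/PRF/5 time count was 5 without 12 h, with fewer arrays. Of the 29 line calls, 13 were higher; the split was 7 of 20 with mock arrays only, 9 of 27 without 48 h and 15 of 30 under quantile normalization. The liver count of 0 was 2 with a trended robust prior, 8 without the widely spread arrays, 0 to 8 when a liver was left out, and 3 with the replicate block. Shares of all genes are given above only for contrasts against the other siRNAs and without liver 1 of APOB-Hs4. The remaining counts under other settings have no background beside them, so they do not show whether these genes moved more than others. Liver numbers do not pair the samples: same-numbered livers correlated at -0.144 to 0.188 and differently numbered ones at -0.154 to 0.204, and 3 of 9 livers correlated best with their own number. Otherwise the cause was not tested. Dim probe sets limit what the small differences of UGT2A1, UGT2B17 and UGT2B28 can show.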
